A study of Mus musculus with 11 samples.

Results

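The insulin-like growth factor (IGF) system was followed in the aorta of old mice through 10 genes, namely the ligands Igf1 and Igf2, the receptors Igf1r and Igf2r, and the binding proteins Igfbp2 to Igfbp7. They were chosen by name, as all rows of the arrays that carry 1 of these 10 gene symbols, which gave 15 of the 55681 probes. All 11 arrays came from male C57BL/6 mice aged 20 months, fed standard chow, and each array held RNA of the descending aorta of 1 mouse. For 8 weeks, the 5 old nitrate mice drank water with 1 g/L sodium nitrate (NaNO3). The 6 old control mice are labelled control, and the paper states that controls drank an equal concentration of sodium chloride. The control labels refer to earlier samples and carry the same treatment text as the nitrate mice. Whether the controls were kept and treated at the same time as the nitrate mice is not given in the sources used here, which bears on every difference between the groups. The study states 6 mice per group, and a sixth nitrate array was not analysed here.

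IGF-1 and IGF-2 are peptide ligands that act through the IGF-1 receptor, a tyrosine kinase that signals through PI3K-AKT and RAS-MAPK. In the artery this signal is known for growth, migration and survival of smooth muscle cells. The IGF-2 receptor has no kinase and carries IGF-2 to the lysosome. The binding proteins hold the ligands in the extracellular space and in blood, and proteases that cut them set the ligands free. Most circulating IGF-1 is made in the liver, so its messenger RNA in the aorta reports local transcription.

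Signals were measured on one-color Agilent arrays and are given as log2 of the background-subtracted spot signal after quantile normalization over the 11 arrays. On this scale a difference of 1 is a doubling. Signal levels of different probes were compared only to pick the probe of a gene with the highest signal. Detection asked for at least 5 arrays of 1 group on which the scanner software both found the spots and flagged them as well above background. A transcript was called where the unadjusted limma P was under 0.05 and the fold change above 1.2, the limits the study used. All 8 cell type lists were checked: all 16 smooth muscle, all 16 endothelial and all 16 fibroblast markers were detected, as were all 30 adipocyte markers. Striated muscle markers were detected too, 10 of 12, and their mean was high in control 1 and nitrate mouse 4. The array of control 1 was the least similar to the rest, with a mean correlation of 0.985 against at least 0.990 for every other array. Each of 3 slides held arrays of both groups, but all control arrays lay in 1 slide column that held no nitrate array, so the slide column and the treatment cannot be told apart.

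Of the 10 genes, 9 were detected and 1 was called, Igfbp3, which was lower after nitrate. Igfbp3 met the detection rule through the control group alone, where its signal was higher, and with detection asked for on all 11 arrays 0 members were called. An adjusted P under 0.05 was reached by 0 of 9, against 0.0127% of all detected probes. The lowest adjusted P was 0.330, and Igfbp3 and Igf1r were the 2 genes with an unadjusted limma P under 0.05, a limit passed by 14.4% of all probes detected. Over all 23633 detected probes 9.00% were called, 4.16% higher and 4.85% lower, and the 1 of 9 members is given as a description. The groups overlapped in all 9 genes, while they did not overlap in 2.75% of all detected probes. The differences of the detected genes, nitrate minus control, had a median of 0.091, with 7 above and 2 below 0. The median over all detected probes was 0.014.

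**Figure D1:**
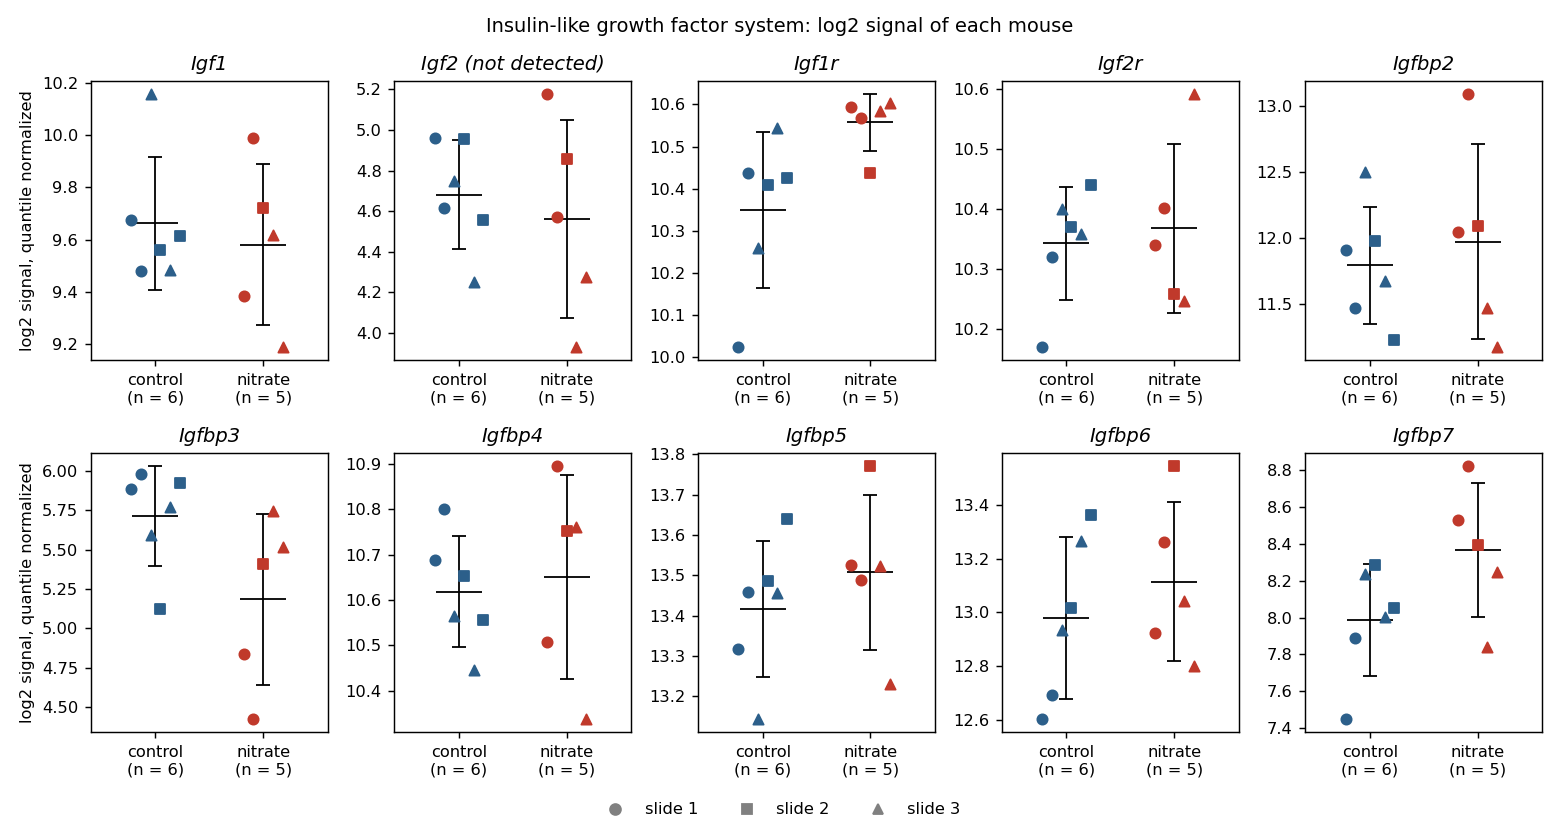
Each panel shows 1 gene with the log2 quantile normalized signal of the 6 control and 5 nitrate mice, marked by slide, and each group's mean ± SD as a black line and bar; axes differ between panels and do not start at 0. Groups overlap in every panel, and for Igfbp3 the nitrate mice of slide 1 (circles) lie at the bottom.

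The probe for the ligand IGF-1 with the highest signal read 9.38, 9.99, 9.72, 9.62 and 9.19 in nitrate mice 1 to 5. The 6 control mice spanned 9.48 to 10.16, their median being 9.59. The highest and the lowest of all 11 values came from control 3 and nitrate mouse 5, and the groups overlapped over most of their range. The group means were 9.58 ± 0.31 (SD, n = 5) and 9.66 ± 0.26 (SD, n = 6). The difference was -0.083 with a 95% interval of -0.42 to 0.26, and an exact permutation test over the mice gave P = 0.649. These bounds correspond to 0.747 and 1.19 times the control level for this probe, and the intervals of the other 4 probes reached up to 1.33 times.

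Igf1 was read by 5 probes, all on chromosome 10 in mm9, the build of the files. A pair of them overlaps by 40 of 60 bases and forms a repeat measurement of nearly the same stretch. 30 bases of each are shown, with the part present in both lines in capitals.
Igf1 probe 1, chr10:87393581-87393610, plus strand: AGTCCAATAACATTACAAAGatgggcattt
Igf1 probe 2, chr10:87393571-87393600, plus strand: aacaataataAGTCCAATAACATTACAAAG
Igf1 probe 3, chr10:87378456-87378485, plus strand: aaccattaaaaacatgccaccaagaccttc
Igf1 probe 4, chr10:87399581-87399610, plus strand: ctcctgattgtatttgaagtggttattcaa
Probe 3 is shown because it lies apart from the others, 15105 bases before probe 2, and is assigned by the files to transcript NM_184052. The other 4 probes are assigned to NM_010512, and probe 4 lies 6020 bases beyond probe 2. Whether a probe falls in coding sequence or untranslated sequence was not examined, since no annotation of mm9 was used here.

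The overlapping pair moved together over the 11 mice, with a Pearson r of 0.98 for the log2 signals. Probe 3 followed probes 1 and 2 less closely, with r of 0.51 and 0.54. In nitrate mice probe 3 read 8.74, 8.83, 8.80, 8.82 and 8.80, a span far narrower than the 8.58 to 8.97 of the controls. The SD over its 2 spots on 1 array had a median of 0.10, above the SD of 0.036 between nitrate mice. The narrow span and the lower r of probe 3 are therefore not read further. Probe 4 read 8.55, 9.09, 8.71, 8.84 and 8.59 in nitrate mice and 8.39 to 9.07 in controls. The fifth probe, 2363 bases beyond probe 2, read 6.18 to 6.71 in nitrate mice and 6.17 to 6.53 in controls. Differences of the 5 probes ran from -0.083 to 0.13, and none was called. The Igf1 difference thus had no sign shared by all probes, and the mean of the 5 probes gave 0.029. These correlations are over arrays that share their RNA and normalization and are given as a description.

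**Figure D2:**
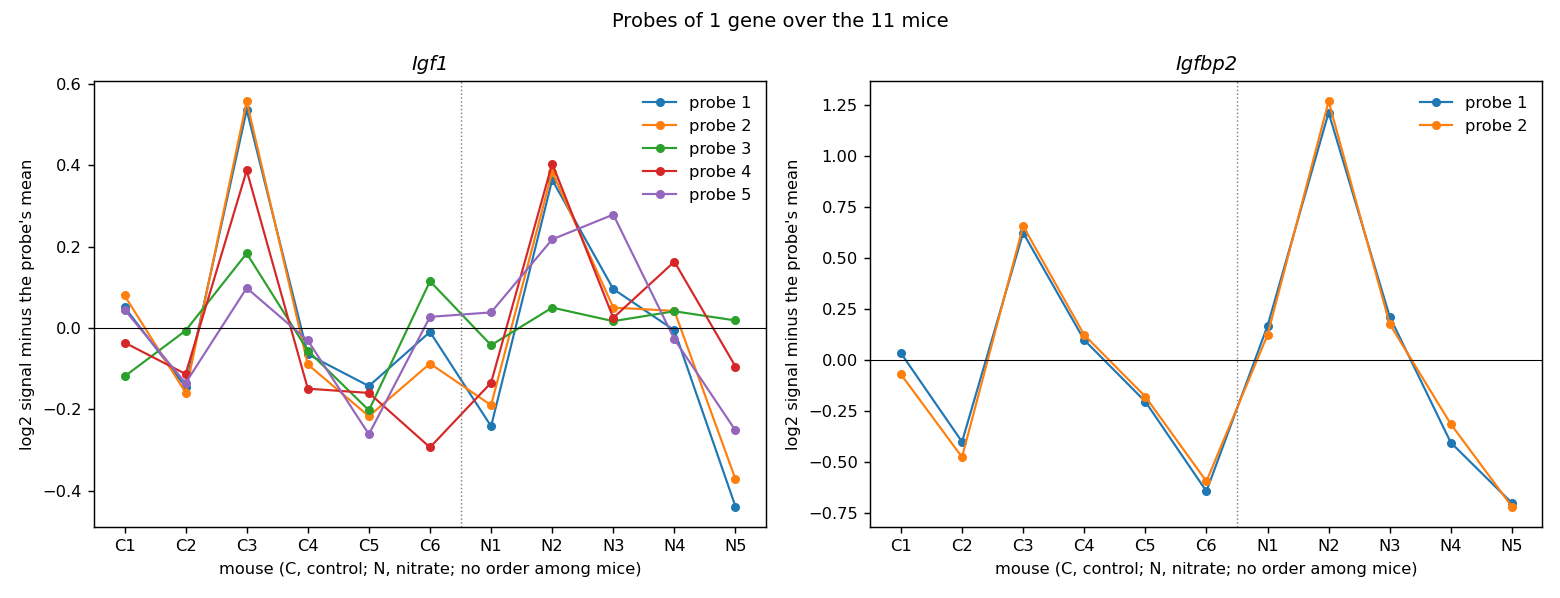
Lines join the log2 signal of each mouse, after subtraction of the probe's own mean, for the 5 probes of Igf1 (left) and both probes of Igfbp2 (right); controls stand left of the dotted line and nitrate mice right of it. Igf1 probes 1 and 2 lie on each other with r of 0.98, probe 3 stays flatter, and both Igfbp2 probes peak in nitrate mouse 2.

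Igf2 was not detected. Its probe met the detection flags on 2 of 5 nitrate and 4 of 6 control arrays, and it read 5.18, 4.57, 4.85, 3.93 and 4.28 in nitrate mice. Controls lay between 4.25 and 4.96. The fit over all probes gave a difference of -0.12 with an interval of -0.60 to 0.36, so a change of Igf2 was not measurable at this signal. Its probe is shown because its low reading decides that the second ligand drops out of the comparison.
Igf2 probe, chr7:149839691-149839720, minus strand: atcaaattatgtggtaattctgcaatgtag

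Igf1r, the signaling receptor, was slightly higher after nitrate. Nitrate mice read 10.59, 10.57, 10.44, 10.59 and 10.60, and controls 10.02 to 10.54 with a median of 10.42. Of the 6 controls, 5 were below the lowest nitrate mouse, and control 5 was the exception. Means were 10.56 ± 0.068 (SD, n = 5) in nitrate and 10.35 ± 0.18 (SD, n = 6) in control mice. The difference of 0.21 had a standard error of 0.090 and an interval of 0.011 to 0.40, a 1.15-fold change that stayed under the limit of 1.2. Limma gave an unadjusted P of 0.0399 and an adjusted P of 0.330, and the exact permutation test gave P = 0.0130. A probe starting at base 11885 of NM_010513 carried this result.
Igf1r probe, chr7:75378461-75378490, plus strand: gctaaagctaaggccacttgagtctattac

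Control 1 had the lowest Igf1r signal, and without it the difference was 0.14 with an exact permutation P of 0.0159. Over the 11 ways to leave out 1 array this exact P lay at 0.00794 to 0.0429, while the limma P, which decides a call, lay at 0.0185 to 0.0750. The limma P was over 0.05 in 6 of these 11 fits, and the fold change was under the limit in all 11. With slide as a block the limma P was 0.0504 and with the replicate block 0.0535, against 0.0399 in limma without a block; the exact permutation P of 0.0130 has no block. Within the 3 slides the differences were 0.35, 0.021 and 0.19, and the smallest came from the second slide, with 1 nitrate and 2 control mice. With the mean of the 30 adipocyte markers as a covariate the Igf1r difference was 0.024. That mean was itself lower after nitrate, between -0.45 and -0.032 against -0.18 to 0.61 in controls, relative to the average of all mice. Its highest control value came from control 1, whose array stood apart, and the next highest, from control 3, was 0.445. Of the adipocyte markers 13 of 30 were called, all lower, where 4.85% of all detected probes were called lower, and 28 of 30 were below 0. The paper states that fat and connective tissue around the vessel were removed before freezing. The defining marker Adipoq, which encodes adiponectin, read 14.30 ± 0.18 in nitrate and 14.79 ± 0.19 in control mice (SD, n = 5 and 6). The covariate is correlated with treatment, r = -0.68 over the 11 mice, so their parts cannot be told apart here. In RNA of a whole vessel, fewer cells of a type and less RNA per cell cannot be told apart either.

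Igf2r, the clearing receptor, was measured by 10 spots per array, the most of the set, and the SD over these spots had a median of 0.079. It read 10.34, 10.40, 10.26, 10.25 and 10.59 in nitrate mice. The controls ranged from 10.17 to 10.44 with a median of 10.36, inside the nitrate range but for control 1. The means differed by 0.025 with an interval of -0.15 to 0.20, and the exact permutation test gave P = 0.740. The interval allows at most a 1.14-fold rise and a level no lower than 0.904 times the control, so a change as large as 1.2-fold lies outside it. Between mice the SD was 0.14 in nitrate and 0.094 in control mice, and over the spots of 1 array it was 0.061 to 0.129.

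Of the binding proteins, Igfbp3, the main carrier of IGF-1 in blood, was the called gene. In nitrate mice 1 to 5 it read 4.83, 4.42, 5.41, 5.75 and 5.51, and controls read 5.12 to 5.98, with 5.83 as their median. Nitrate mice 1 and 2 were below every control, 4 of 6 controls were above every nitrate mouse, and control 4, at 5.12, was below 3 nitrate mice. The means were 5.18 ± 0.54 (SD, n = 5) and 5.71 ± 0.32 (SD, n = 6). The difference was -0.53 with a standard error of 0.23 and an interval of -1.04 to -0.021, a 1.44-fold lower signal. Limma gave P = 0.0426, or 0.334 after adjustment, and the exact permutation test gave P = 0.0758, which misses 0.05.
Igfbp3 probe, chr11:7106624-7106653, minus strand: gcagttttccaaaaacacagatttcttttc

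Of the 9 detected IGF genes, Igfbp3 alone did not meet the detection flags on every array, with 4 of 5 nitrate and 5 of 6 control arrays. It thus entered the tests through the group in which it was higher, so its P is no independent support for the difference. Within the slides the Igfbp3 difference was -1.31, -0.12 and -0.055, and both low nitrate mice were on slide 1. Without nitrate mouse 2 the difference was -0.34 with an exact permutation P of 0.181, and without nitrate mouse 1 it was -0.44 with an exact P of 0.148. In all, 7 of the 11 fits with 1 array left out did not call Igfbp3. A different background correction (normexp) gave -0.20, under the fold limit. The gene with the signal most like Igfbp3 among 12204 detected genes was Aqp7, the glycerol channel of adipocytes, with r of 0.88 over 11 mice and 0.68 without the 2 mice farthest from the median of Igfbp3. Aqp7 belongs to the adipocyte list, so it is part of that list's mean. With this mean as a covariate the Igfbp3 difference was -0.32 and was no longer called. The mean is correlated with treatment, r = -0.68 over the 11 mice, so their parts cannot be told apart.

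**Figure D3:**
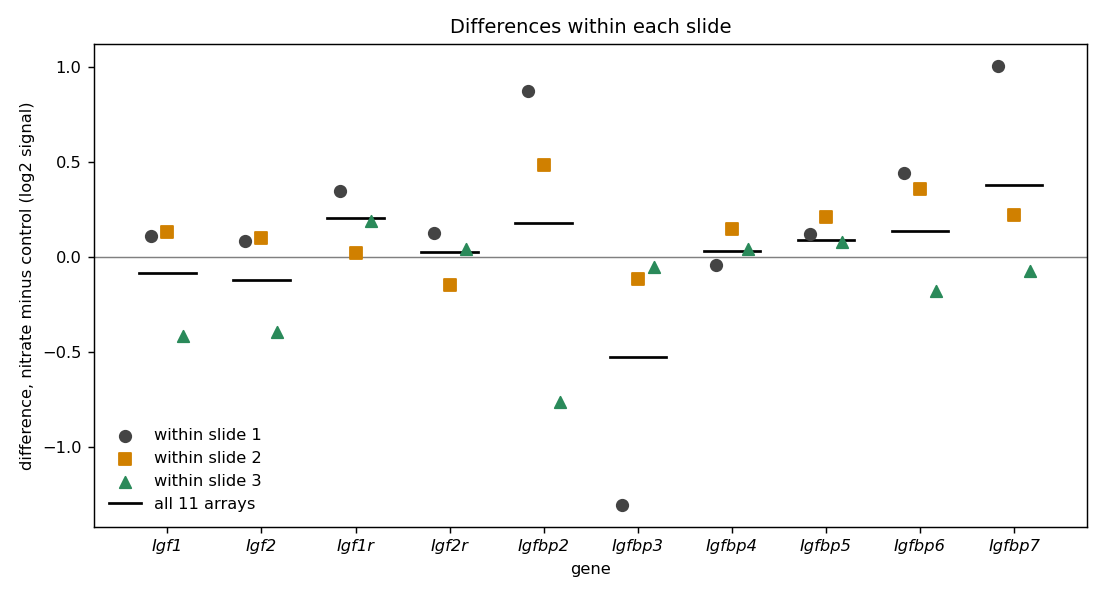
For each gene the difference nitrate minus control in log2 signal is shown within each of the 3 slides (symbols) and over all 11 arrays (black line); slide 2 held 1 nitrate and 2 control arrays, the others 2 of each. Igfbp3 and Igfbp7 differ most on slide 1, at -1.31 and 1.01. The sign is the same on all 3 slides for Igf1r, Igfbp3 and Igfbp5, and it changes between slides for every other gene.

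Igfbp7, a related protein that binds IGFs weakly and insulin and lies in vascular basement membranes, showed the largest difference upward but was not called. It read 8.53, 8.82, 8.39, 7.84 and 8.25 in nitrate mice and between 7.45 and 8.29 in controls, with a control median of 8.03. In 3 nitrate mice the signal was above every control, while nitrate mouse 4 lay below 5 of them. The means were 8.37 ± 0.36 (SD, n = 5) and 7.99 ± 0.30 (SD, n = 6), a difference of 0.38 with an interval of -0.014 to 0.77. The limma P was 0.0574 and the exact permutation P was 0.0931. As for Igfbp3, the difference was concentrated on slide 1, with 1.01 there against 0.22 and -0.077 on the other slides. Without nitrate mouse 4 the difference was 0.51 and passed both limits, with an exact permutation P of 0.0143, and without control 1 it was 0.27. Igfbp7 was called in 3 of the 11 fits with 1 array left out. With the adipocyte covariate, which is correlated with treatment, the difference was 0.075.
Igfbp7 probe, chr5:77778271-77778300, minus strand: aaacaaaacaAATAAAattcttatcacaac
Capitals mark AATAAA, the common polyadenylation signal, searched on the strand of the probe; of the 15 IGF probes 1 held it, and 10.1% of all 60-base probes did. Igfbp7 was most like Fam114a1, with r of 0.95 over 11 mice and 0.83 without the 2 mice farthest from its median.

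Igfbp2, a binding protein also known as a marker of metabolic state, varied most between mice. Its probe with the higher signal read 12.04, 13.09, 12.09, 11.47 and 11.18 in nitrate mice, and 11.23 to 12.50 in controls with a median of 11.79. Nitrate mice thus held both the highest and the lowest value of all 11. The difference was 0.18 with an interval of -0.51 to 0.87, and it became -0.099 without nitrate mouse 2. Within slides it was 0.87, 0.49 and -0.76, so its sign differed between slides. A second probe 136 bases further on gave nearly the same profile, with r of 0.99, and a difference of 0.20. Both probes are shown because they read 1 transcript at separate sites and the spread between mice was seen in each.
Igfbp2 probe 1, chr1:72898677-72898706, plus strand: catctcttctacaacgagcagcaggagact
Igfbp2 probe 2, chr1:72898813-72898842, plus strand: aggagttcccagttttgacacatgtattta

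Igfbp4, Igfbp5 and Igfbp6 did not pass the test, and their intervals were narrower. Igfbp4, which inhibits IGF action and is cut by pregnancy-associated plasma protein A, read 10.51, 10.90, 10.75, 10.76 and 10.34 in nitrate mice and 10.45 to 10.80 in controls. Its difference was 0.032 with an interval of -0.20 to 0.26. Igfbp5, a matrix-bound binding protein, read 13.53, 13.49, 13.77, 13.52 and 13.23 against 13.14 to 13.64, a difference of 0.091 with an interval of -0.14 to 0.32. Igfbp6, which prefers IGF-2, read 12.92, 13.26, 13.55, 13.04 and 12.80 against 12.60 to 13.36, a difference of 0.14 with an interval of -0.22 to 0.49. For all 3 genes the nitrate and control ranges lay largely on top of each other. The highest reading of both Igfbp5 and Igfbp6 came from nitrate mouse 3, and without it the differences were 0.026 and 0.027.

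**Figure D4:**
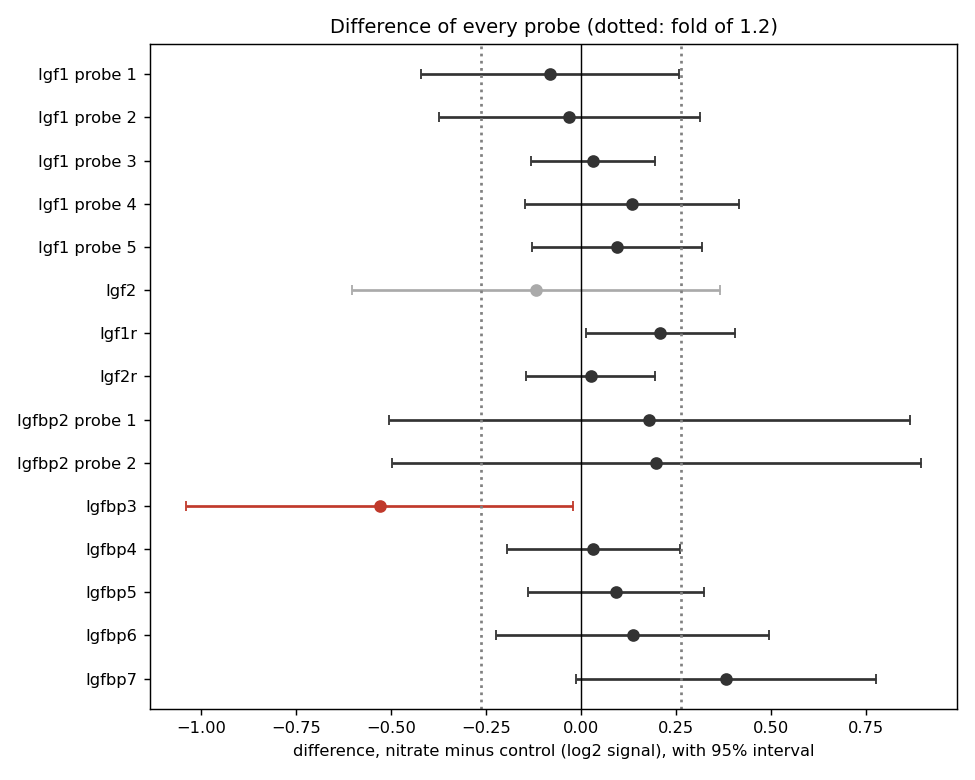
Points give the difference nitrate minus control in log2 signal for each of the 15 probes and bars the 95% interval from limma; dotted lines mark a fold change of 1.2. Igfbp3 (red) is the called gene, at -0.53, Igf1r lies above 0 but inside the dotted line at 0.21, and Igf2 (grey) was not detected.

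Other genes of the pathway were read through 6 lists of 94 genes, of which 75 were detected. Of these, 38 were higher and 37 lower after nitrate, with a median difference of 0.00071, and 2 (2.67%) were called, both lower. The share over all detected probes was 9.00%. Vtn and Ghr were the called genes, and 5 genes had an unadjusted limma P under 0.05.

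Vtn encodes vitronectin, a matrix and plasma protein that binds IGF-2 and IGF complexes. It belongs to the list of proteins and proteases that modify IGF binding, of which 10 of 14 genes were detected. Nitrate mice read 6.37, 6.17, 6.71, 6.67 and 6.12, and controls 6.67 to 7.58 with a median of 6.97. Nitrate mouse 3 was above control 4, and no other nitrate mouse was above any control. The difference was -0.63 with a standard error of 0.17, and the limma P was 0.00305, or 0.182 after adjustment, with an exact permutation P of 0.00649. Vtn was called in each of the 11 fits with 1 array left out, at -0.71 to -0.52, and was lower within all 3 slides, with differences of -0.94, -0.25 and -0.55. Its signal thus stayed lower whichever mouse was left out.

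The proteases of the list did not pass the test. Adamts1 differed by 0.43, with an exact permutation P of 0.136. Pappa, which cuts Igfbp4, differed by 0.30 (exact P = 0.108), and Htra1 by 0.24 (exact P = 0.102). Stc2, which blocks the protease encoded by Pappa, differed by 0.30, and Pappa2, which cuts Igfbp3 and Igfbp5, by -0.40. Igfals, the partner of Igfbp3 in its blood complex, differed by -0.22, Esm1 by 0.32, Mmp2 by 0.079 and Ctsd by -0.14. Igfbp1, Igfbpl1, Stc1 and Plg were not detected. Among related ligands and receptors, Insr (0.076), Lrp1 (0.14), M6pr (0.031) and Ins2 (0.013) showed small differences that did not pass the test, and Ins1 and Insrr were not detected.

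In the list of Igf2 and Igf2r locus genes, their insulator protein and messenger RNA binding genes, 0 of 4 detected genes were called by their probe with the highest signal. H19, the noncoding neighbour of Igf2, differed by -0.17, Mrpl23 by -0.075 and Ctcf, the insulator protein, by 0.081. Airn, the noncoding RNA that silences the paternal Igf2r copy, differed by -0.33 with an exact permutation P of 0.132. Its 3 detected probes differed by -0.33, -0.32 and -0.28, and the second of these passed the limits with an exact permutation P of 0.0390. The antisense transcript Igf2os and the messenger RNA binding genes Igf2bp1, Igf2bp2 and Igf2bp3 were not detected.

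Ghr, the growth hormone receptor, was the called gene of the growth hormone axis. It read 11.16, 11.54, 11.49, 11.34 and 11.11 in nitrate mice and 11.39 to 12.32 in controls, with a median of 11.61. The difference was -0.38 with a standard error of 0.16, limma P = 0.0374 and exact permutation P = 0.0584, and a second probe gave -0.29. Control 3 held the highest value, as it did for Igf1, and without it the Ghr difference was -0.25 with an exact permutation P of 0.103. In all, 6 of 11 fits with 1 array left out did not call Ghr. Jak2, the kinase that the growth hormone receptor activates, was named after its values were seen. It read 10.13, 10.14, 10.23, 10.20 and 10.35 in nitrate mice and 9.84 to 10.11 in controls, so every nitrate mouse was above every control. Jak2 was the 1 gene of the 75 detected pathway genes without overlap, against 2.75% of all detected probes. Its difference of 0.24 stayed under the fold limit, with limma P = 0.00426, or 0.194 after adjustment, and an exact permutation P of 0.00433. With 1 array left out, 2 of the 11 fits called Jak2. Downstream, 0 of 35 detected genes of the adaptor and PI3K-AKT list and 0 of 15 of the RAS-MAPK list were called, against 9.00% of all detected probes, and 2 and 0 had an unadjusted limma P under 0.05, against 14.4%. These 2, named after their values were seen, were Pik3r3 (0.24), a regulatory subunit of PI3K, and Foxo1 (-0.15), a transcription factor that AKT inhibits.

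**Figure D5:**
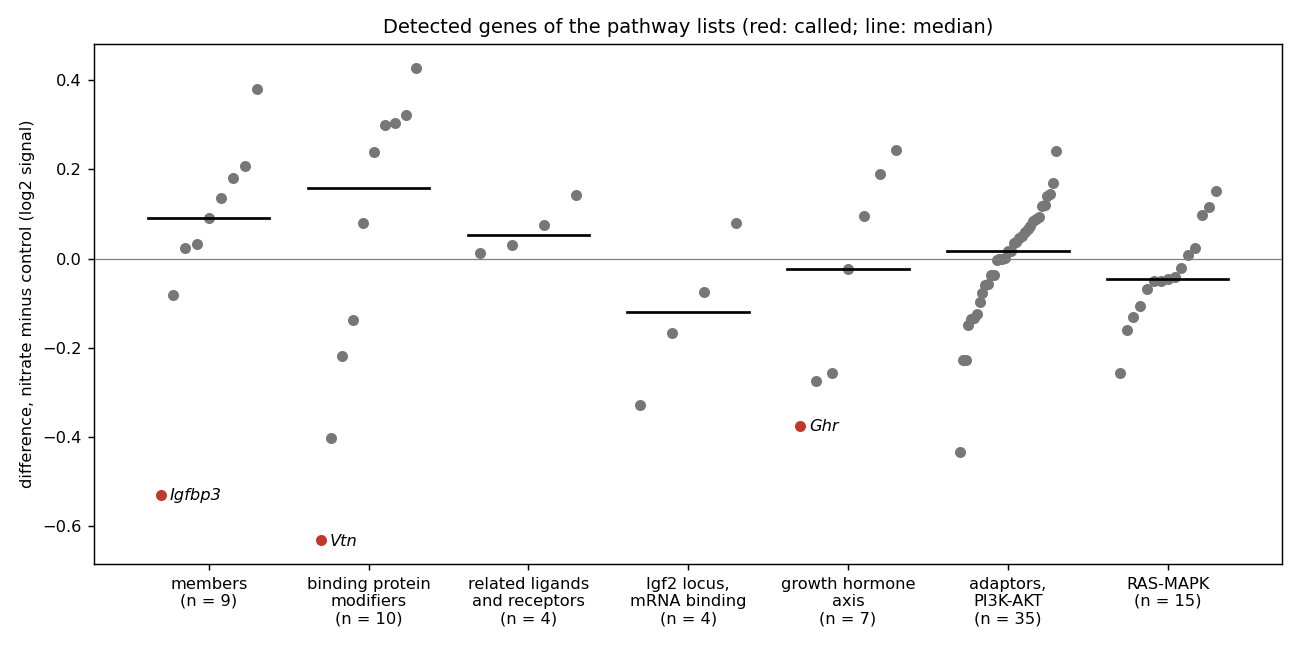
Points are detected genes of the IGF system and of 6 pathway lists, placed by the difference nitrate minus control in log2 signal; red points are called and black lines are medians. Called genes were Igfbp3, Vtn and Ghr, all lower, and the medians lie between -0.12 and 0.16.

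Marker lists of other cell types are given as counts, and their part in the IGF results was not tested. The fits with the adipocyte covariate above cannot tell an adipocyte part from treatment. The means of all 8 lists overlapped between the groups. All 16 fibroblast markers were above 0 with a median difference of 0.16, and 0 were called. The fibroblast mean was -0.081 to 0.24 in nitrate and -0.26 to -0.0069 in control mice. Smooth muscle markers were higher in 14 of 16, with 1 called (Lmod1), and their mean was -0.039 to 0.25 against -0.45 to 0.082. The lowest control value of both the fibroblast and the smooth muscle mean came from control 1, whose array stood apart, and the next lowest were -0.067 and -0.050. Over all detected probes 53.8% were higher after nitrate. Against 9.00% called over all detected probes, 4 of 15 (26.7%) brown adipocyte markers were called, Cidea, Ebf2 and Kcnk3 lower and Prdm16 higher. The calls of 2 of 16 (12.5%) endothelial markers, Robo4 and Sox18, and of 1 of 7 (14.3%) Schwann cell markers, Mbp, all lower, were near that share. Macrophage markers were higher in 15 of 16, with a median difference of 0.083 and 0 called. Striated muscle markers were higher in 8 of 10, with a median difference of 0.67 and 0 called.

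For each detected IGF gene the 2 genes with the most similar profile over the 11 mice are given, as a description. These log2 signals share arrays and normalization. Each partner was picked as the highest r among 12204 genes over 11 arrays. A high r thus follows from the choice and is no support for a link. The most similar profile of each gene had r between 0.86 and 0.97. Igf1 was most like Mpp1 (r = 0.95) and Gda (0.93), Igf1r like Klhdc8b (0.97) and Evc2 (0.97), and Igfbp2 like Bid (0.90) and Mmp2 (0.89), the gelatinase of the modifier list. Igf2r was most like Zscan20 (0.92) and Pus3 (0.90), Igfbp4 like Nodal (0.86) and Marcksl1 (0.85), Igfbp5 like Zmym5 (0.94) and Tle1 (0.92), and Igfbp6 like Hhat (0.90) and Pdpn (0.90). The second gene after Aqp7 for Igfbp3 was Cdc42ep2 (0.87), and after Fam114a1 for Igfbp7 it was Fam47e (0.95). Likeness of this kind differed little when group means were removed, at 0.95 for Igf1 and Mpp1, 0.97 for Igf1r and Klhdc8b, and 0.83 for Igfbp3 and Aqp7. Without the 2 mice farthest from the median of the IGF gene, these 3 pairs had r of 0.90, 0.84 and 0.68. Among the other pairs, Igf2r and Zscan20 fell to 0.69 and Igfbp4 and Marcksl1 to 0.67, while Igfbp4 and Nodal stood at 0.87.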

How the data were processed

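RNA of 5 old nitrate and 6 old control aortas was measured on 1 array each. The authors deposited spot intensities, background-subtracted by Feature Extraction 10.7.1.1 and not normalized between arrays, and a log2 table of quantile normalized, median-centred values, used here as an alternative. In R 4.3.3, processed signals under 1 were set to 1 before log2 was taken. Outlier-flagged spots (at most 186 of 59305 per array) were dropped, a probe's spots were averaged, and arrays were quantile normalized. Upper quartiles of the signal were 213 to 289 per array, and the number of arrays limits the precision. For a gene with several detected probes, the one with the highest average signal was used, and undetected probes were fitted with all probes. Groups were compared with limma 3.58.1 (lmFit, eBayes), with Benjamini-Hochberg adjustment over 23633 detected probes, and with two-sided exact permutation tests over 462 divisions of the 11 mice, which cannot give a P below 0.00216. The fit was tested on simulated data. Members and lists were chosen with earlier results of these data known. Named genes were the 10 members, called pathway genes, all genes of the modifier, receptor and Igf2 locus lists, and for each detected member the 2 genes with the most similar profile. Adipoq was named as the defining adipocyte marker. The called markers of the smooth muscle, brown adipocyte, endothelial and Schwann lists, and Jak2, Pik3r3 and Foxo1, were named after their values were seen. Igf2os was found under an older name. Probe sequences and mm9 positions were copied from the deposited files. Alternatives changed the scaling, background correction, offset (16), source table, detection rule, treatment of flagged spots, variance prior, probe choice or fold limit, added slide, replicate number or the adipocyte mean to the fit, or left out 1 array.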

Additional observations from a re-analysis of the deposited data

Results flagged for a closer look

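Each of the 15 probes and 8 marker lists was screened for a mouse far from the rest of its group, as the gap to the nearest mouse divided by the group's range, against Dixon's 95% limits. Of 46 groups tested 7 passed, where chance gives 2.3 for independent screens. These screens share arrays and genes and are not independent, so no excess over chance is read from the count. For Igf1 probe 1, control 3 was high among the controls (0.712), and for Igf1r, nitrate mouse 3 was low among the nitrate mice (0.790). Control 1 stood apart in 4 marker lists: it was high for brown adipocyte (0.642) and striated muscle (0.655) markers and low for smooth muscle (0.751) and fibroblast (0.765) markers. Nitrate mouse 4 was high for endothelial markers (0.775).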

How the results depend on the processing

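The number of called IGF genes, 1 with all arrays, was 0 with no detection filter, with detection on all 11 arrays, with the replicate block and with the adipocyte covariate, and 2 with a trended robust prior and with no fold limit. Leaving out 1 array gave 0 to 2. With normexp correction the count stayed 1, but Igfbp7 (0.32) was called and Igfbp3 (-0.20) was not. The 2 called pathway genes became 1 with 75th percentile scaling, 4 with the replicate block and 5 with no fold limit, and 1 to 8 with 1 array left out. The number of called transcripts, 2128, was 1218 with normexp, 3224 with no detection filter and 3394 with no fold limit, and 1596 to 2424 with 1 array left out. Under the adipocyte covariate uncalled differences changed sign for Igf1 (0.0513), Igf2r (-0.0525), Igfbp5 (-0.0787) and Igfbp6 (-0.11), and with the mean of all probes for Igf1 (0.0288). With 1 array left out, ranges crossed 0 for Igf1 (-0.18 to 0.0168), Igf2 (-0.27 to 0.0390), Igf2r (-0.0317 to 0.0547), Igfbp2 (-0.0993 to 0.38) and Igfbp4 (-0.0296 to 0.11). The causes were not tested. Of 227 member values under alternatives 198 kept sign and side, and 0 called values changed sign. Most of these values belong to genes that were not called. Igfbp3, the called gene, lost its call in 7 of 11 fits with 1 array left out and in 4 of 11 other settings.

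Replicate numbers were shared between the groups, and the labels do not say whether they pair the mice. Deviations of same-numbered mice correlated between -0.14 and 0.18, which cannot decide whether mice were paired. With the replicate block, which leaves control 6 without a partner, Igfbp3 differed by -0.49 with a limma P of 0.135.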
